A study of Mus musculus with 16 samples.

Results

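The miRNAs mmu-miR-451, mmu-miR-144 and mmu-miR-486, which are best known from developing red blood cells, were followed in sciatic nerves of mice with and without Dicer in their Schwann cells. They were chosen by name, as every probe that the array design assigns to one of the 3 names. These are 3 of the 650 miRNA names on the array, with 2 probes each, and 6 of its 1857 probes. All 3 passed the filter for expressed miRNAs, so 6 of the 681 probes tested belong to them. mmu-miR-144 lay at the edge of that filter. It passed through a single group, the embryonic mutants, with detection on 2 of the 4 arrays where at least 2 were required. mmu-miR-451 was detected on all 16 arrays.

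Mutants were Dicer fl/fl Dhh-Cre+ mice and controls were Dicer wt/fl Dhh-Cre+ littermates of strain Dicer1tm1Bdh/J, kept under SPF conditions. Both genotypes therefore carried the Cre transgene and at least 1 floxed Dicer allele, and the controls kept 1 wild type allele. The desert hedgehog (Dhh) promoter drives Cre in Schwann cells, and the study expected Dicer to be lost there alone, with neurons and other cells of the nerve spared. The arrays do not show in which cells Dicer was lost. Nerves were taken at embryonic day 17 (E17), before myelination starts, and at postnatal day 4 (p4). Each of the groups wt-E17, fl-E17, wt-P4 and fl-P4 held 4 mice with 1 single-color array each, numbered 1 to 4 as in the labels. Slide and age cannot be told apart, since the E17 arrays filled one slide and the p4 arrays the other, whereas both genotypes shared each slide. In whole nerves, fewer cells of a type and less RNA per cell cannot be told apart either.

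Most miRNAs are cut out of a hairpin precursor by Dicer. The precursor of miR-451 is too short for Dicer and is instead cut by Argonaute 2, which makes miR-451 the best known miRNA that does not need Dicer. miR-144 comes from the same primary transcript, which the erythroid factor GATA1 switches on, but its precursor is cut by Dicer. The gene of miR-486 lies within that of ankyrin 1, a protein of the red cell membrane skeleton, and its precursor also depends on Dicer; miR-486 is made in muscle as well. Mature red cells carry miR-451 and miR-486 in large amounts, and most red cells of a mouse fetus come from the liver, whereas spleen and bone marrow take over around birth.

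The sequences show how miR-451 differs from its neighbor. RefSeq sequences on GRCm38.p6 were at hand for 2 of the 3 miRNAs. The hairpins of Mir144 (chr11:78073005-78073070) and Mir451a (chr11:78073170-78073241) lie on the plus strand, 99 bases apart, and are printed with the mature miRNA in capitals. For Mir144 this is the 3′ arm, the product that carried the plain name miR-144 in older nomenclature; the array files name no arm.
Mir144: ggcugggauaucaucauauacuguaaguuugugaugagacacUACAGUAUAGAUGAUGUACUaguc
Mir451a: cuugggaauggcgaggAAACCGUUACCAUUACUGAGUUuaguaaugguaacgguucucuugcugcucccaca
In the minimum free energy structure that RNAfold predicts, the terminal loop of the Mir451a hairpin takes up bases 35 to 38, and the mature miR-451a runs from base 17 through base 38, so that it holds all 4 loop bases. The mature miR-144-3p runs from base 43 to base 62 of its own hairpin and holds 0 of the 6 loop bases. The mature sequences with their seeds (bases 2 to 8) in capitals show that the neighbors share no seed, and none of the 1738 mature miRNAs in the table shares a seed with either.
mmu-miR-451a: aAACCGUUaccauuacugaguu
mmu-miR-144-3p: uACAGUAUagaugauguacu

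In the following, a level is the log2 of the median spot signal after quantile normalization across the 16 arrays, given for the brightest probe of each miRNA. Levels of different probes cannot be set against each other. For mmu-miR-451, the levels at E17 were 12.97, 12.77, 12.27 and 12.21 in the 4 mutants, with a mean of 12.56 ± 0.37 (SD, n = 4). They were 11.28, 10.38, 10.64 and 12.05 in the 4 controls, with a mean of 11.09 ± 0.75 (SD, n = 4). Every mutant nerve thus lay above every control nerve at E17, although control 4 came close to mutants 3 and 4. At p4 the levels were 9.30, 8.88, 9.94 and 10.38 in the mutants, with a mean of 9.63 ± 0.67 (SD, n = 4). In the p4 controls they were 7.94, 9.65, 7.89 and 7.64, with a mean of 8.28 ± 0.92 (SD, n = 4). Control 2 lay within the range of the p4 mutants, and the other 3 controls lay below it. The order of the group means was fl-E17, wt-E17, fl-P4 and wt-P4.

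**Figure D1:**
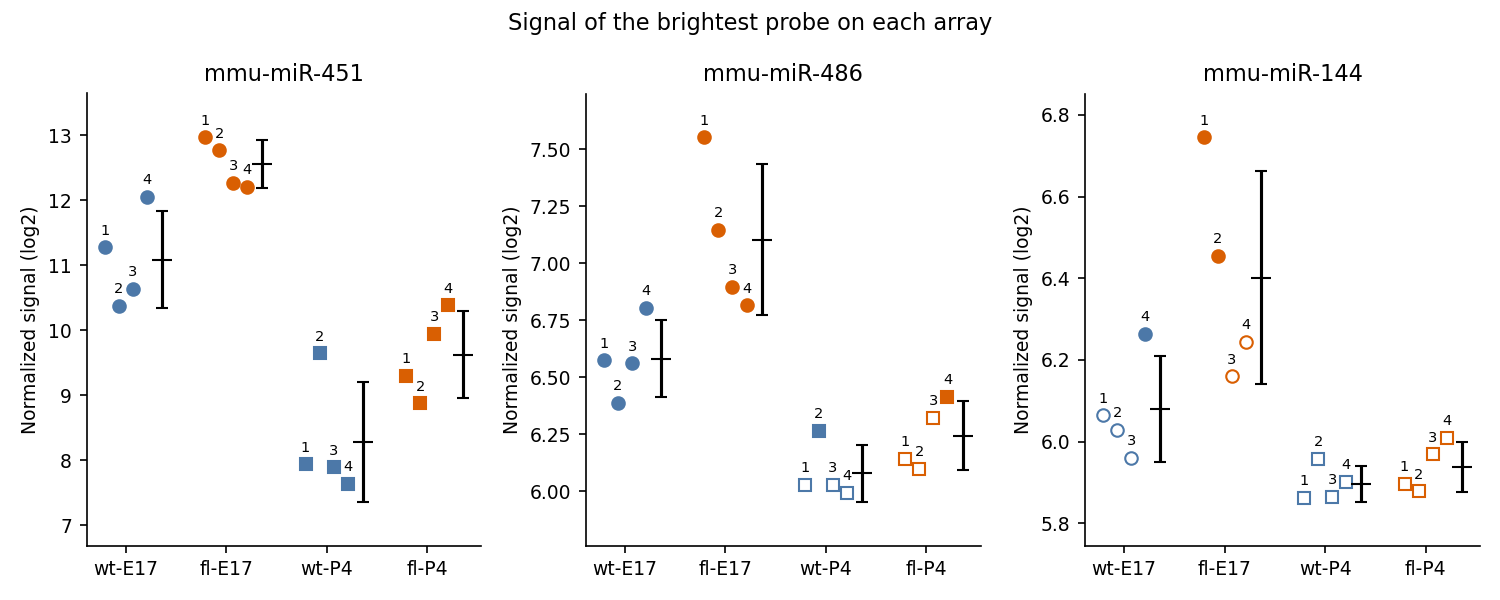
Normalized signal (log2, y axis) of the brightest probe of mmu-miR-451, mmu-miR-486 and mmu-miR-144 on each of the 16 arrays, by group on the x axis (wt, Dicer wt/fl Dhh-Cre+ controls; fl, Dicer fl/fl Dhh-Cre+ mutants). Numbers are the replicates, filled points are arrays on which the probe was above background, open points those on which it was not, and bars are the mean ± SD of 4 arrays; the y axes differ between panels and do not start at 0. Array 1 of fl-E17, 4 of wt-E17, 2 of wt-P4 and 4 of fl-P4 are the highest of their group in every panel.

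mmu-miR-451 was not lower in mutant nerves than in controls at either age. At p4 its signal was 2.54-fold higher in mutants than in controls (log2 difference 1.35, SE 0.466; 95% confidence interval 1.27-fold to 5.08-fold), with an adjusted p of 0.0306 in the limma fit. This passed the limits used throughout, an adjusted p of at most 0.05 over the 681 probes and a log2 difference of at least 0.5. At E17 it was 2.77-fold higher (log2 difference 1.47, SE 0.466; 95% confidence interval 1.38-fold to 5.54-fold), with an adjusted p of 0.0624 in limma, which did not pass although the arrays of the genotypes did not overlap. The second probe of mmu-miR-451 gave log2 differences of 1.11 at p4 (adjusted p 0.0647) and 1.33 at E17 (adjusted p 0.0759) and passed at neither age. The effect of genotype at p4 minus that at E17 was -0.12 on the log2 scale (SE 0.659; 95% confidence interval -1.54 to 1.29; adjusted p 0.940), so that a difference of more than 2-fold between the ages in either direction lies within the interval.

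The call at p4 was close to its limit. It was lost without p4 mutant 3 or 4 or without p4 control 1, 3 or 4 (log2 differences of 1.096 to 1.23), and without p4 control 2 the difference was 1.78 and the adjusted p 0.00249. It was also lost in 5 of 12 alternatives, among them the methods' t-test (adjusted p 0.119), whereas at E17 the difference passed without control 4 (log2 difference 1.82, adjusted p 0.0238). The difference was above 0 in all of these fits.

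mmu-miR-486 reached levels of 7.55, 7.15, 6.90 and 6.81 in the E17 mutants (mean 7.10 ± 0.33, SD, n = 4). In the E17 controls it reached 6.57, 6.39, 6.56 and 6.80 (mean 6.58 ± 0.17, SD, n = 4). The genotypes did not overlap, but mutant 4 and control 4 differed by little. The probe was above background on all 8 arrays of this age. The log2 difference was 0.52 (SE 0.140; 95% confidence interval 0.22 to 0.82), a 1.43-fold higher signal in mutants, with an adjusted p of 0.0296 in limma. This just passed the limit on size, and it was lost in 9 of 12 alternatives, among them normexp background correction with 0.36 and the methods' t-test with an adjusted p of 0.135. The second probe gave 0.32 (adjusted p 0.0280), under the limit on size. At p4 the levels were 6.14, 6.10, 6.32 and 6.41 in mutants and 6.03, 6.27, 6.03 and 5.99 in controls, and the groups overlapped. The probe was above background only on mutant 4 and control 2 of the p4 arrays, and the log2 difference was 0.17 (SE 0.140; 95% confidence interval -0.13 to 0.47; adjusted p 0.366).

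mmu-miR-144, the Dicer-dependent neighbor of mmu-miR-451, was close to background. Its levels were 6.75, 6.46, 6.16 and 6.25 in the E17 mutants and 6.07, 6.03, 5.96 and 6.26 in the E17 controls. Only mutants 1 and 2 and control 4 were above background, and these were the 3 highest arrays. mmu-miR-144 passed the filter for expressed miRNAs only through the E17 mutants, the group where it was highest. Its differences from that group are therefore not independent of the filter. The log2 difference at E17 was 0.32 (SE 0.101; 95% confidence interval 0.10 to 0.54; adjusted p 0.0590), and the second probe gave 0.32 with an adjusted p of 0.0384, also under the limit on size. At p4 the levels lay between 5.86 and 6.01 on all 8 arrays, none of them above background, so that no fold can be given for this age. The fitted log2 difference was 0.04 (adjusted p 0.763).

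Over the 6 probes, 1 was called higher in mutants at p4, against a background of 6.61% of the 681 probes called higher. At E17 it was also 1 of 6, against 1.47% called higher. The arrays of the genotypes did not overlap for 0 of the 6 probes at p4 (background 19.1% higher without overlap) and for 2 of the 6 at E17 (background 8.52%). All 6 differences were above 0 at both ages, with a median of 0.13 at p4 and 0.42 at E17, where the medians over all probes tested were 0.02 and -0.00194. By their brightest probes, 57.7% of all expressed miRNAs were above 0 at p4 and 49.1% at E17. The 6 probes are pairs that follow each other. At p4, both mmu-miR-144 probes and the second mmu-miR-486 probe were above background on 0 arrays, so their sign there carries little weight. The difference between the genotype effects at p4 and E17 was called for 0 of 6 probes in limma and reached an unadjusted p under 0.05 for 1, while 6.61% of all probes were called in either direction. The methods' t-test called 0 of the 3 brightest probes after adjustment at either age, and at an unadjusted p of at most 0.05 it passed 0 at p4 and 2 at E17. Over all 681 probes it called 261 at p4 and 41 at E17 after adjustment, and 311 and 187 at the unadjusted p. The comparisons between ages use the same arrays and are not independent of these.

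**Figure D2:**
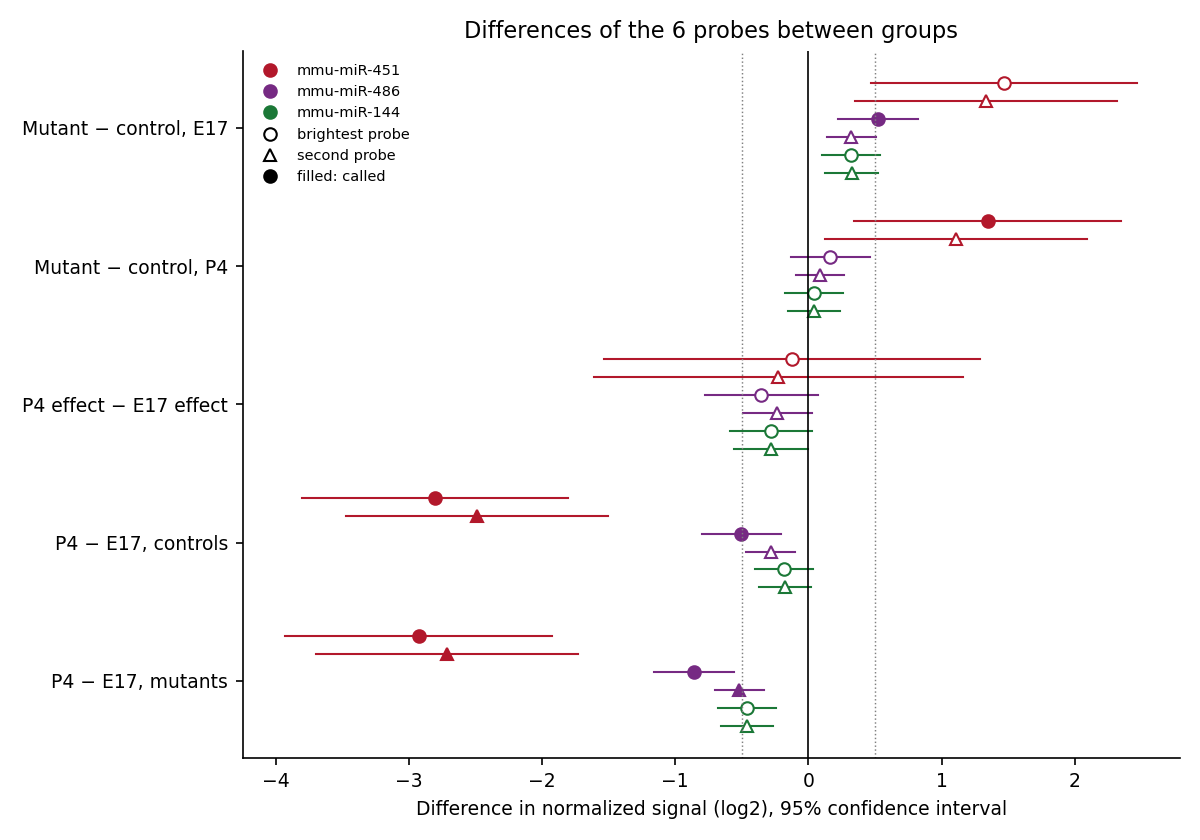
Differences in normalized signal (log2, x axis) of the 6 probes between groups, with 95% confidence intervals from limma. Circles are the brightest probe and triangles the second probe of each miRNA, filled symbols passed both limits, and dotted lines mark ±0.5. The mutant-minus-control differences of mmu-miR-451 lie between 1.11 and 1.47 at both ages, and its changes from E17 to p4 between -2.93 and -2.49 in both genotypes.

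mmu-miR-451 and mmu-miR-486 were lower at p4 than at E17 in both genotypes. mmu-miR-451 fell by 2.81 on the log2 scale in controls (SE 0.466; adjusted p 0.000308 in limma), to 0.143 of its E17 signal. In mutants it fell by 2.93 (SE 0.466; adjusted p 0.000344), to 0.131 of its E17 signal. The arrays of the ages did not overlap in either genotype, and the second probe gave -2.49 and -2.71. These calls were kept in all 11 alternatives that could be fitted and without any single array, with log2 differences of -3.25 to -1.45 in controls and -3.19 to -2.03 in mutants. mmu-miR-486 fell by 0.86 in mutants (SE 0.140; adjusted p 0.000394) and by 0.50 in controls (SE 0.140; adjusted p 0.0111), the latter only just past the limit on size and lost in 5 of 11 alternatives. Its second probe was above background on 0 of the 4 fl-P4 arrays, where its signal was lower by a factor of at least 1.20 than in fl-E17. mmu-miR-144 was -0.46 in mutants (SE 0.101; adjusted p 0.00392) and -0.18 in controls (SE 0.101; adjusted p 0.170), both under the limit on size, and without normalization the value in controls turned to 0.11. Since it was not above background on any p4 array, the value in mutants corresponds to at least 1.09-fold. In all, 3 of the 6 probes were called lower with age in controls, against 7.34% of all probes, and 4 of 6 in mutants, against 5.29%. The ages did not overlap for 6 of 6 probes in controls (background 16.7% lower without overlap) and 6 of 6 in mutants (background 13.7%). For the brightest mmu-miR-144 probe in controls, the highest p4 level was 5.958 and the lowest E17 level 5.960, neither above background. The 2 probes of a miRNA are not independent of each other, and mmu-miR-144 is counted only through its detection in the E17 mutants.

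The 3 miRNAs varied together from nerve to nerve. In each of the 4 groups, the array with the highest mmu-miR-451 also had the highest mmu-miR-486 and the highest mmu-miR-144. Before normalization, array 4 of wt-E17 and array 2 of wt-P4 also had the highest summed signal of their groups. Their sums of the leukocyte, endothelial and skeletal muscle miRNAs listed below were the highest as well. Array 1 of fl-E17 and array 4 of fl-P4 were highest in none of these sums. How often other sets of miRNAs vary together in this way was not tested. Over the 8 nerves of E17, mmu-miR-486 followed mmu-miR-451 with a Pearson r of 0.905 (exact permutation p 0.000967, adjusted 0.00193). The order of the 8 nerves was the same for both, with a Spearman rho of 1 (exact permutation p 4.96e-05, the smallest that 8 arrays can give; adjusted 0.000298). At p4 the r was 0.967 (exact permutation p 0.000149, adjusted 0.000893) and the rho 0.976 (p 0.000397, adjusted 0.00119). Without the 2 arrays farthest from the median of mmu-miR-451 the r was 0.917 at E17 and 0.951 at p4. With the mean of each genotype removed it was 0.764 at E17 and 0.966 at p4, which was not tested. The permutations took no account of genotype, so the p of these relations include any shift between genotypes.

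mmu-miR-144 followed mmu-miR-451 with r of 0.864 at E17 (exact permutation p 0.00407, adjusted 0.00488) and 0.859 at p4 (exact permutation p 0.0101, adjusted 0.0101). The corresponding rho were 0.881 (p 0.00724, adjusted 0.0109) and 0.738 (p 0.0458, adjusted 0.0458). Without the 2 arrays farthest from the median r was 0.872 and 0.908, and with the mean of each genotype removed it was 0.741 and 0.874. Between mmu-miR-144 and mmu-miR-486, r was 0.961 at E17 (exact permutation p 0.000744, adjusted 0.00193) and 0.941 at p4 (exact permutation p 0.00181, adjusted 0.00272), and rho was 0.881 (p 0.00724, adjusted 0.0109) and 0.762 (p 0.0368, adjusted 0.0441). Without the 2 arrays farthest from the median of mmu-miR-144, r was 0.790 and 0.806, and with the mean of each genotype removed it was 0.935 and 0.944. These are the 6 relations computed, and all kept their sign without those 2 arrays. The p4 values of mmu-miR-144 were all within background, and all values share the normalization of their array.

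**Figure D3:**
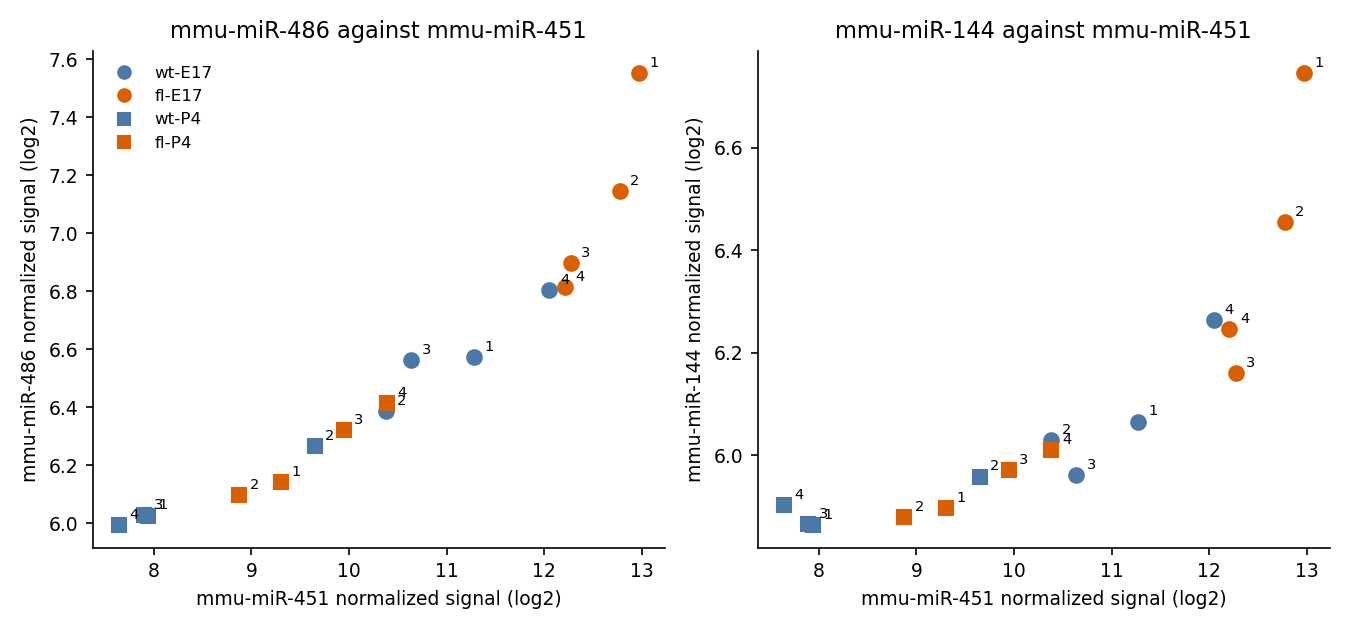
Normalized signal (log2) of mmu-miR-486 (left) and mmu-miR-144 (right) on the y axes against that of mmu-miR-451 on the x axes, 1 point per array, with the replicate number beside it. Blue, controls; orange, mutants; circles, E17; squares, p4. The order of the 8 E17 arrays is the same for mmu-miR-451 and mmu-miR-486, and the curves flatten at the left, where mmu-miR-486 and mmu-miR-144 come near the background.

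Among the 280 other expressed miRNAs, mmu-miR-486 was the one most like mmu-miR-451 over the 16 arrays (r = 0.943, rho = 0.997), and mmu-miR-144 ranked 8 (r = 0.852, rho = 0.935). The ranks from 2 to 5 went to mmu-miR-671-5p, mmu-miR-483*, mmu-miR-150* and mmu-miR-718, with r between 0.873 and 0.887. The 16 arrays share 4 groups, and these coefficients are given as a description. With the group means removed, r with mmu-miR-451 was 0.762 for mmu-miR-486 and 0.601 for mmu-miR-144, and between -0.09 and 0.17 for those 4. mmu-miR-451 was also among the most variable miRNAs within groups, with a pooled SD of 0.706 (rank 6 of 281, where the median was 0.126). The SD of mmu-miR-486 was 0.210 (rank 56) and that of mmu-miR-144 was 0.151 (rank 117). The 2 probes of each miRNA followed each other with r of 0.990 to 0.997 over the 16 arrays.

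Within an array, the log2 signal of mmu-miR-451 minus that of mmu-miR-486 is free of any scale common to the array. It was 5.45 ± 0.12 in E17 mutants and 4.51 ± 0.59 in E17 controls (SD, n = 4 each), a change of 0.95 with a p of 0.0286 in the exact two-sided permutation test (adjusted over 8 tests 0.0381). This p is the smallest that 4 against 4 can give, and the adjusted p was 0.0571 to 0.0762 when any one E17 array was left out. Both miRNAs were above background on all E17 arrays. Nothing is read from the same difference at p4 or to mmu-miR-144, since a probe at background leaves only the change of mmu-miR-451 itself. The spot signals include background, which compresses the change of a dim probe more than that of a bright one. The change of 0.95 therefore need not mean that the pair changed unequally. Before normalization, the median background-subtracted signal of mmu-miR-451 at E17 was 3395 units in mutants and 1237 in controls. That of mmu-miR-486 was 55.8 and 21.9 units. With background-subtracted gene signals, quantile normalized, an alternative chosen after seeing the data, the genotype differences at p4 were 1.64 for mmu-miR-451 (adjusted p 0.0118), 1.59 for mmu-miR-486 (adjusted p 0.0372) and 0.68 for mmu-miR-144 (adjusted p 0.312) in limma. At E17 they were 1.43 (adjusted p 0.0564), 1.15 (adjusted p 0.199) and 1.95 (adjusted p 0.0274), in the same order. Gene signals under 1 were set to 1 in this alternative. At p4 mmu-miR-486 was detected on 3 of 4 mutant and 1 of 4 control arrays, and mmu-miR-144 on 0 in either genotype. The p4 values of these 2 miRNAs thus depend on arrays without detection.

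The total signal of the arrays moved with genotype at p4. The background-subtracted signals of all miRNAs summed to between 56841 and 83630 units on the p4 mutant arrays and to between 122860 and 154076 on the p4 controls, so that mutants had 51.3% of the control signal (log2 difference -0.96, exact permutation p 0.0286). Relative to the positive-control probes the log2 difference was -0.67 (exact permutation p 0.0857) and did not pass. At E17 the sums were 39097 to 50827 in mutants and 36495 to 60374 in controls (88.7% of controls; exact permutation p 0.400). Quantile normalization removes such a change. Before any normalization, the background-subtracted signal of mmu-miR-451 was 4685, 3968, 2821 and 2060 units in the E17 mutants and 1629, 845, 769 and 3208 in the E17 controls. At p4 it was 514, 448, 1087 and 1192 in the mutants and 307, 1716, 355 and 205 in the controls. The genotypes overlapped at both ages on this scale, through control 4 at E17 and control 2 at p4, and 3 of the 4 p4 controls were below all p4 mutants.

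Without normalization the log2 difference of mmu-miR-451 was 0.63 at p4 (adjusted p 0.158), beside a median of -0.09 over all probes, and 1.22 at E17 (adjusted p 0.0149), beside a median of 0.25. Scaled to the positive-control probes it was 0.92 at p4 (adjusted p 0.00650; median of all probes 0.20) and 1.22 at E17 (adjusted p 0.00160; median 0.26). Expressed as a share of the summed signal of its array, which is a share of array signal and not of molecules, mmu-miR-451 took 5.27% to 11.9% in E17 mutants and 1.69% to 5.31% in E17 controls. At p4 it took 0.536% to 1.91% in mutants and 0.167% to 1.11% in controls.

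**Figure D4:**
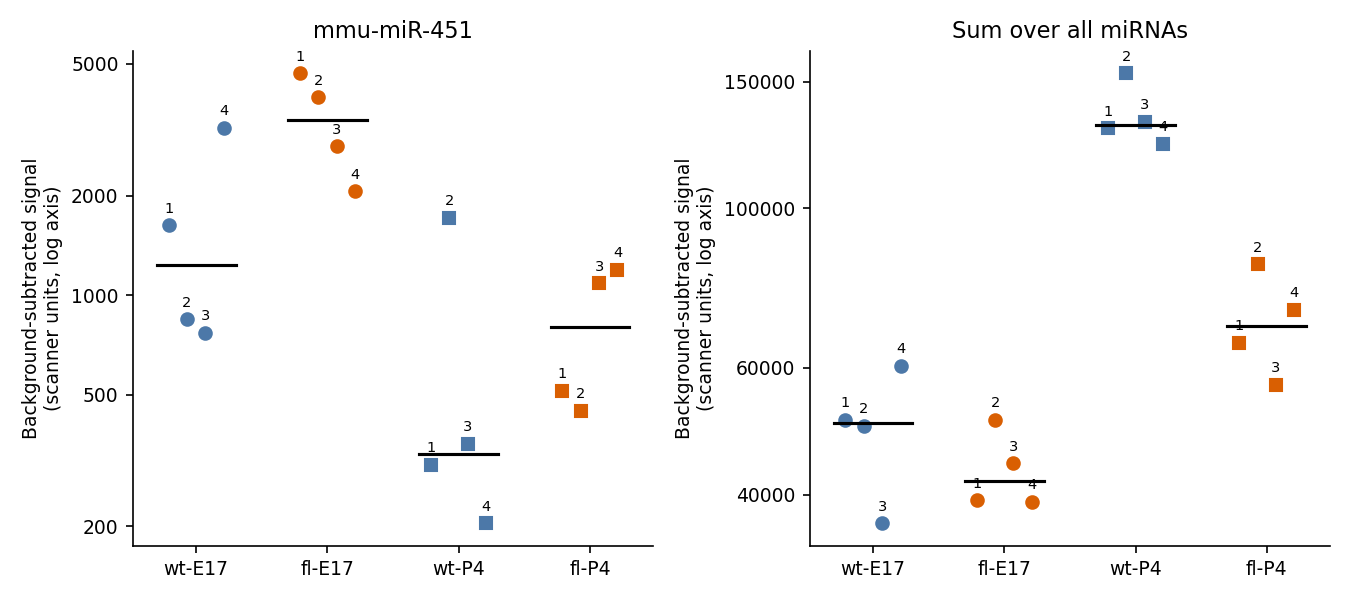
Background-subtracted signal before normalization (scanner units, log y axis) of mmu-miR-451 (left) and summed over all miRNAs (right), 1 point per array with its replicate number; blue, controls; orange, mutants; lines are the medians of 4 arrays. The summed signal of the p4 mutants is 51.3% of that of the p4 controls, while the medians of mmu-miR-451 are 800 units in p4 mutants and 331 in p4 controls.

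Other miRNAs that are plentiful in red cells but made in most tissues were looked at beside the 3. Of a list of 9, the star forms mmu-miR-144* and mmu-miR-486* were not on this array, and the remaining 7 were detected on 14 to 16 arrays. At p4, 0 of the 7 were called higher in mutants and 2 were called lower, mmu-miR-16 with -0.71 (adjusted p 0.000922 in limma) and mmu-miR-92a with -0.98 (adjusted p 8.32e-05). Of all 281 expressed miRNAs, 10.3% were called higher and 10.7% lower at p4. The values were -0.43 for mmu-miR-15b, -0.40 for mmu-miR-25, -0.39 for mmu-miR-185, -0.13 for mmu-miR-210 and 0.32 for mmu-miR-22. Values are given for the brightest probe, while a call may rest on either probe of a miRNA. The median of the list was -0.40, where that of all expressed miRNAs was 0.06. At E17 none of the 7 was called (3.56% of all miRNAs were called higher and 2.49% lower), with values from -0.18 for mmu-miR-185 to 0.42 for mmu-miR-22, and a median of -0.06. From E17 to p4, 1 of the 7 was called higher in controls (mmu-miR-22; 8.19% of all miRNAs) and 4 were called lower in mutants (mmu-miR-15b, mmu-miR-16, mmu-miR-25 and mmu-miR-92a, with -0.54 for mmu-miR-16 to -1.40 for mmu-miR-92a), against 7.47% of all miRNAs. mmu-miR-15b and mmu-miR-92a had -0.46 and -0.49 in controls, near the -0.50 of mmu-miR-486, and were not called. The summed signal of the 7 was 9287 to 10434 units in wt-P4 and 2625 to 4404 units over the other 3 groups. These sums are not scaled to the total signal of the array. That total was 122860 to 154076 units in wt-P4 and 36495 to 83630 over the other 3 groups. On the normalized scale, the median change of the 7 from E17 to p4 in controls was -0.17.

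miRNAs of other cell types that a nerve sample holds were looked at beside these values. The leukocyte list has 5 members, of which mmu-miR-142-5p and mmu-miR-150 were detected on 0 arrays. mmu-miR-223, known from neutrophils and monocytes, was called higher in mutants at p4 (0.81, adjusted p 6.48e-05 in limma), and mmu-miR-142-3p, found in all blood lineages, was called higher at E17 (0.54, adjusted p 0.00436). Not called were mmu-miR-223 at E17 (0.36), mmu-miR-142-3p at p4 (0.34) and mmu-miR-155 at either age (0.01 at E17, 0.08 at p4). Thus 1 of the 3 expressed members was called higher at each age. Of all miRNAs, 10.3% were called higher at p4 and 3.56% at E17. The summed leukocyte signal was 138 to 187 units in E17 mutants and 87.0 to 177 in E17 controls, and 280 to 417 in p4 mutants and 228 to 342 in p4 controls. Of the 2 endothelial miRNAs, mmu-miR-126-3p was called higher in mutants at p4 (0.60, adjusted p 0.0123) and had 0.48 at E17 (adjusted p 0.0932). The other, mmu-miR-126-5p, had 0.09 at p4 and 0.05 at E17 and was called at neither age. The summed endothelial signal was 445 to 569 units in E17 mutants and 348 to 613 in E17 controls, and 927 to 1512 in p4 mutants and 1138 to 2381 in p4 controls. The leukocyte and endothelial sums are not scaled to the total signal of the array, which was lower in p4 mutants than in p4 controls. They can therefore differ in direction from the normalized values.

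mmu-miR-486 is also a muscle miRNA, so the 4 skeletal muscle miRNAs mmu-miR-1, mmu-miR-133a, mmu-miR-133b and mmu-miR-206 were looked at as well. They were detected on all 16 arrays, and 0 of 4 were called by genotype at either age, with medians of 0.70 at p4 and 0.18 at E17. With age, mmu-miR-206 was called lower in controls (-1.38, adjusted p 0.0285; 12.1% of all miRNAs were). Their summed signal was 203 to 857 units in E17 mutants, 203 to 833 in E17 controls, 198 to 988 in p4 mutants and 259 to 572 in p4 controls. It is likewise not scaled to the total signal of the array. The labeled tissue was checked by Schwann cell miRNAs: mmu-miR-338-3p and mmu-miR-204 were detected on all 16 arrays, mmu-miR-138 on 8 and mmu-miR-338-5p on 5. All 4 were called lower in mutants at p4 (mmu-miR-338-3p with -2.85, adjusted p 9.29e-08 in limma), against 10.7% of all miRNAs. This is not independent evidence, since the study picked several of them from these arrays. Of 3 neuronal miRNAs, mmu-miR-9 was called lower at p4 (-0.68, adjusted p 0.000603), while mmu-miR-124 had 0.31 (adjusted p 0.00142) and mmu-miR-128 0.10, neither called. The part of blood, vessel or muscle content in the genotype differences of the 3 miRNAs was not tested.

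**Figure D5:**
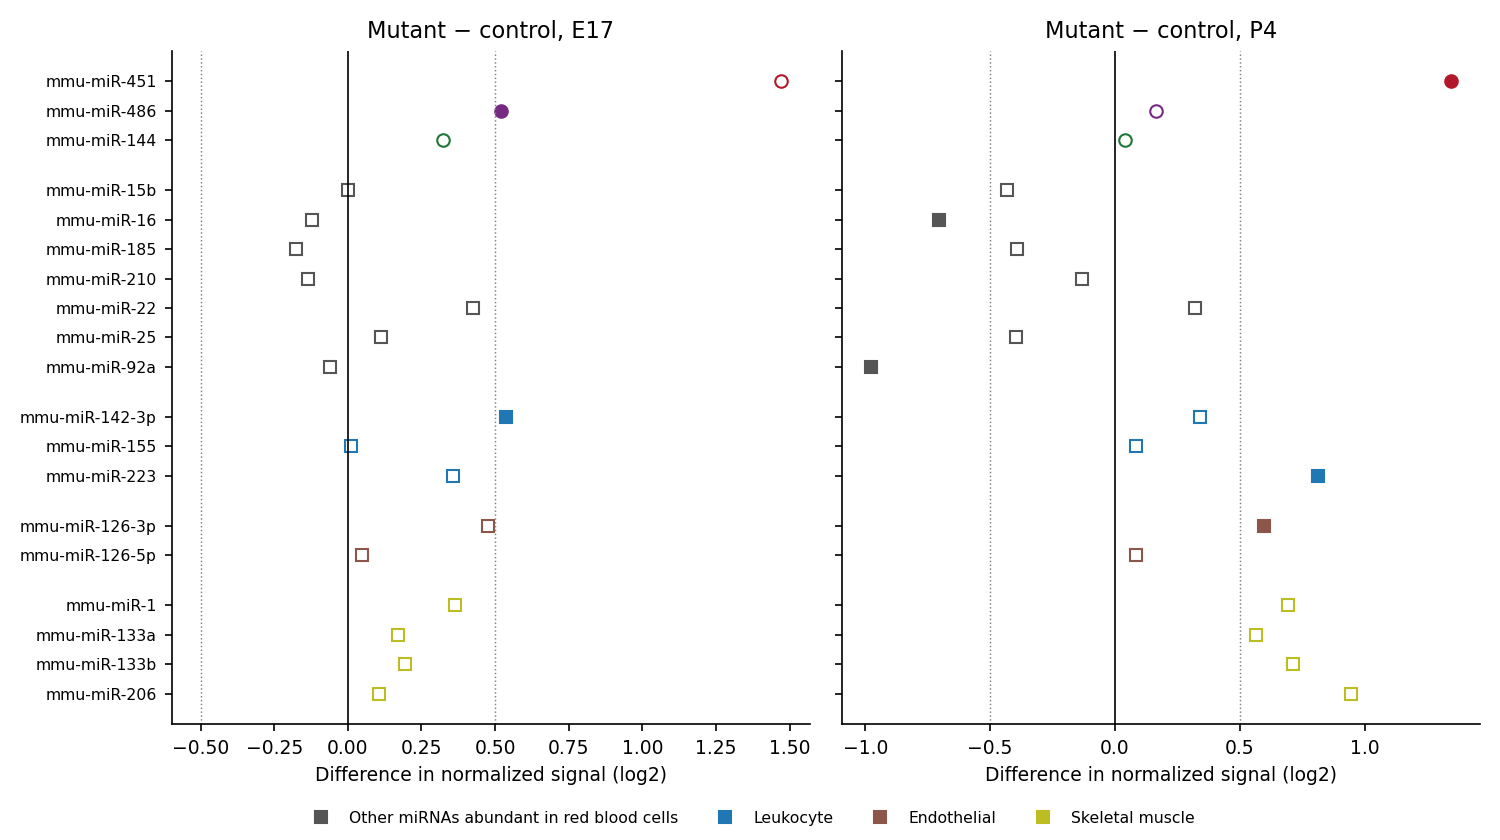
Mutant-minus-control differences in normalized signal (log2, x axes) at E17 (left) and p4 (right) of the 3 miRNAs (circles, brightest probe) and of the expressed members of 4 lists (squares, colored by list). Filled symbols passed both limits in limma and dotted lines mark ±0.5. At p4 mmu-miR-451 lies at 1.35 while mmu-miR-16 and mmu-miR-92a lie at -0.71 and -0.98.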

How the data were processed

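Total RNA of 16 sciatic nerves was labeled with Cyanine 3 and hybridized to Agilent mouse miRNA arrays. The authors deposited the scanner output of Agilent Feature Extraction 10.5.1.1 (per the labels), with spot intensities before any scaling of one array to another, and their own quantile normalized intensities of the probes, used here as an alternative. No column of that table was left without a sample. The array design (021828) names no genome build and no arm of a miRNA.

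Following the study's methods, log2 median spot intensities of the 13000 non-control spots were quantile normalized. The mean of the spots of each probe was then taken, outlier spots left out. Each probe of the 3 miRNAs has 10 spots. miRNAs detected on 2 or more of the 4 arrays of any group were kept (281 miRNAs, 681 probes). The 16 arrays entered one limma 3.58.1 fit (R 4.3.3), with Benjamini-Hochberg adjustment over the 681 probes. Calls needed a log2 difference of 0.5 or more in size and an adjusted p no higher than 0.05. limma replaced the methods' t-test, run as an alternative. A probe was above background on an array where most of its spots were marked so, and a fold against a group with no such array is given as a bound. Within-array differences, summed signals and correlations between members were tested by exact permutation. Hairpin structures came from RNAfold 2.7.2. The files hold median and no mean spot signals, so normexp correction (offset 50), planned on the mean, used the median. The fit was tested on simulated data.

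Named are all probes of the 3 miRNAs, the 5 miRNAs most correlated with mmu-miR-451, the red cell list and the members of the other lists. Members and lists were chosen with earlier results of these data known. Between 197 and 260 miRNAs were detected per array, arrays of a group correlated with r of 0.962 to 0.998, and the number of arrays limits the precision. Alternatives concerned the background, normalization, filter, test, probes, arrays used and their weights, a replicate block and the deposited table.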

Additional observations from a re-analysis of the deposited data

Results flagged for a closer look

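In the wt-P4 group, replicate 2 stood far above the other 3 arrays for both mmu-miR-451 and mmu-miR-486. Its gap to the next array took up 0.849 of the range of the group for mmu-miR-451 (9.65 against 7.64 to 7.94 on the normalized log2 scale). For mmu-miR-486 the gap took up 0.875 of the range (6.27 against 5.99 to 6.03). Both passed the 95% limit of Dixon's test for 4 values, as did no other of the 16 groups of values examined, and chance alone passes it in about 1 of 20. The same array was also the highest of its group for mmu-miR-144, with a gap of 0.590 of the range, and for the summed miRNA signal, with a gap of 0.685. Its sums of the leukocyte, endothelial and skeletal muscle miRNAs were the highest of wt-P4 as well. Without this array the mutant-minus-control difference at p4 was 1.78 for mmu-miR-451 (adjusted p 0.00249 in limma) and 0.22 for mmu-miR-486 (adjusted p 0.231 in limma).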

How the results depend on the processing

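All values are log2 differences, and an adjusted p is limma's. mmu-miR-451 at p4 (1.35) kept its direction in all 12 alternatives and lost its call in 5: 1.35 without the filter on absent miRNAs (adjusted p 0.0698), with only the 2 groups compared (0.0723), in the methods' t-test (0.119) and with the replicate block (0.0799), and 0.63 without normalization. At E17 (1.47, not called) it passed in 5 of 12: 1.51 with normexp, 1.22 without normalization and with positive-control scaling, 1.75 with array weights and 1.47 with only the 2 groups. mmu-miR-486 at E17 (0.52) was lost in 9: 0.52 without the filter, with the 2 groups, in the t-test and with the replicate block (adjusted p 0.0631), 0.36 with normexp, 0.42 with the mean of both probes, 0.60 without normalization and with positive controls, and 1.15 with background-subtracted gene signals. At p4 it passed with the 75th percentile (0.71) and with gene signals (1.59). Its fall in controls was lost with normexp (-0.32), without normalization (-0.11), with the deposited intensities (-0.43), array weights (-0.49) and the mean of both probes (-0.39). mmu-miR-144 passed with the 75th percentile at p4 (0.66), at E17 (0.54) and with age (-0.96 in controls, -0.83 in mutants), with positive controls with age (-1.34 and -1.58) and with gene signals at E17 (1.95) and with age (-2.64 and -3.90), and turned to 0.11 in controls without normalization. The 75th percentile moved the median of all probes by 0.56 at p4 and -0.64 with age in controls, and positive-control scaling moved the latter by -1.03, so these calls are not relative to the other miRNAs. With positive-control scaling limma gave all 3 miRNAs an SE of 0.266, so its adjusted p do not reflect the spread of each probe. Gene-signal values that involve p4 depend, for mmu-miR-144 and mmu-miR-486, on arrays without detection.

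The p4 effect minus the E17 effect, not called for any member, turned to 0.0582, 0.12 and 0.10 (mmu-miR-451, mmu-miR-144, mmu-miR-486) with the 75th percentile, to 0.0280 for mmu-miR-451 with array weights, and to 0.21 and 0.44 for mmu-miR-451 and mmu-miR-486 with gene signals. The within-array change of mmu-miR-451 over mmu-miR-486 at E17 was 1.02 (exact p 0.0571, adjusted 0.0762) in the deposited intensities, and the summed p4 signal relative to positive controls was -0.67 (exact p 0.0857). The causes were not tested. The probes called higher and lower at p4, 45 and 54, became 24 and 36 with normexp, 1 and 156 without normalization, 400 and 64 with the 75th percentile, 5 and 70 with positive controls and 50 and 68 in the deposited intensities; at E17, 10 and 9 became 6 and 6, 3 and 8, 7 and 16, 2 and 3, and 11 and 15.

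Leaving out single arrays gave 1.096 to 1.78 for mmu-miR-451 at p4, 1.25 to 1.82 at E17 and -0.46 to 0.31 for the difference of these, where the sign turned without E17 mutant 1, p4 mutant 2, E17 control 2 or 3 or p4 control 2. mmu-miR-486 at E17 ranged from 0.38 to 0.63, lost without mutant 1 or 2 or control 1, 2 or 3, and its fall in controls from -0.57 to -0.43, lost without E17 control 4 or p4 control 1, 3 or 4. mmu-miR-144 from E17 to p4 in mutants ranged from -0.56 to -0.44, past the limit without E17 mutant 3 or 4, and could not be fitted without E17 mutant 1 or 2, when it failed the filter. Within arrays, mmu-miR-451 over mmu-miR-144 ranged from 0.94 to 1.44 at E17, 1.08 to 1.72 at p4, -3.05 to -2.37 in controls and -2.70 to -2.15 in mutants with age, and over mmu-miR-486 from 0.79 to 1.22, 0.98 to 1.56, -2.70 to -2.07 and -2.27 to -1.78. Both E17 calls were lost in all 8 of these fits, as were 4 of 8 for each change with age, and both p4 changes passed without p4 control 2. Leaving out an array leaves the exact test fewer assignments. For the change with age in mutants, the exact p stayed at 0.0286 without any one E17 mutant, and the adjusted p became 0.0571. Where mmu-miR-144 or mmu-miR-486 was at background these ranges repeat the change of mmu-miR-451.

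The study used 4 littermate pairs per age, but no label says that replicate numbers mark them. Deviations of same-numbered mutants and controls correlated with r of -0.52 to 0.09 at E17 and -0.28 to 0.46 at p4. They exceeded 0.1 in 0 of 4 pairs at E17 and 3 of 4 at p4. So few values cannot settle whether the numbers pair the samples. With the replicate block 98 probes were called at p4 and 23 at E17, where 99 and 19 were called without it. Neither age had every mutant correlate best with the control of its own number.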
